A study of Mus musculus with 194 samples.

Results

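Molecular chaperones of the cytosol and of mitochondria were followed in 5 brain structures of mice given cocaine. The members were chosen by symbol: the heat shock protein families Hspa, Hspb, Hspd, Hspe, Hsph and Hsp90, the J-domain families Dnaja, Dnajb and Dnajc, the subunits of the CCT chaperonin, and the cochaperones Stip1, Chordc1 and Ahsa1, without Hspa5 and Hsp90b1 of the endoplasmic reticulum. Of 19363 genes in the count table, 84 symbols matched, and the 69 with a mean of at least 5 CPM (counts scaled to a common library size) in any structure were kept. The 69 members were 8 Hsp70 proteins, 3 Hsp110 proteins, 2 Hsp90 proteins, 5 cochaperones, 7 CCT subunits, 2 mitochondrial chaperonin subunits, 4 small heat shock proteins, and 4 DnajA, 9 DnajB and 25 DnajC proteins. Just inside the minimum stood Hspbap1, at a mean of 5.76 CPM in the dorsal striatum, and just outside it Hspa12b, at 4.77 CPM in the lateral hypothalamus. A few members found by symbol, among them Dnajb9, Dnajb11 and Dnajc3, are J proteins of the endoplasmic reticulum, so the set is wider than its name. Subfamilies were also given by symbol alone, and those counted as small heat shock proteins are Hspb1, Hspb6, Hspb8 and Hspb11.

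Chaperones bind unfolded or partly folded proteins and help them to reach or keep their native form. Hsp70 proteins do so in cycles of ATP binding and hydrolysis that J-domain proteins start and that Hsp110 proteins, acting as nucleotide exchange factors, reset. Hsp90 takes over late folding steps of kinases and steroid receptors, with Stip1 (Hop) as the adaptor between Hsp70 and Hsp90. The ring-shaped CCT complex folds actin and tubulin, and the pair Hspd1 (Hsp60) and Hspe1 (Hsp10) folds proteins in the mitochondrial matrix. Many of these genes are controlled by the heat shock factor Hsf1, and in neurons the constitutive Hsc70 protein Hspa8 also strips clathrin from synaptic vesicles together with the J protein auxilin (Dnajc6).

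Male C57BL/6OLAHSD mice, 6 to 7 weeks old on arrival, were given 3 daily saline injections to accustom them, and then cocaine at 20 mg/kg intraperitoneally. Acute mice received 1 dose, repeated mice 5 daily doses (the sample labels write "Chronic"), and challenge mice a single dose after 21 days without drug that followed 5 daily doses. Tissue was taken 1, 2 or 4 hr after the last dose, or without one (0 hr): from cocaine-naive mice in the acute series, 24 hr after the 4th dose in the repeated series and from abstinent mice in the challenge series. The structures were the dorsal striatum (DS), the nucleus accumbens (NAc) below it, the limbic cortex (LCtx), the lateral hypothalamus (LH) and the amygdala (Amy), dissected from slices, and each library came from 1 mouse. The labels give no saline mice at the matched hours, so the hours after cocaine also hold the injection and handling. By this schedule challenge mice, with or without a dose on the day, were sampled later after arrival than acute and repeated mice. Age at sampling and the challenge experience therefore cannot be told apart.

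The 194 libraries covered 166 samples (a mouse and a structure), of which 28 were sequenced in a pair of runs, and held 1193306 to 10367769 counts. Most experiences were sequenced in runs of their own, where the effects of run and treatment cannot be told apart. In the DS a single run held 24 libraries, 2 mice for each of 4 times and 3 experiences, and all comparisons between experiences in the DS below rest on that run unless stated. Within that run each experience was also a single cohort, and cohort and experience cannot be told apart there. In the DS run the acute libraries were deepest (median 2338867 counts), the repeated next (1748275.5) and the challenge libraries shallowest (1468351.5), and the part of depth in the differences was not tested. Tissue markers followed the labels, with median Drd1 at 387 CPM in the DS and 187 in the NAc against at most 24 elsewhere, Slc17a7 at 1222 CPM in the LCtx and 14.6 in the DS, and Hcrt at 5649 CPM in the LH. Hcrt was also at 371 CPM in the Amy.

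Hsf1 binds as a trimer to inverted repeats of GAA spaced by 2 bases, and members whose promoter held 3 such units in a row are shown because they can be set against the expression results. Promoters (250 bases before to 50 after the start of transcription) came from RefSeq on GRCm38.p6, with an entry for 57 of the 69 members; Hspa8, Hsp90aa1 and Hsp90ab1 were among the 12 without one. The search used GAANNTTC and TTCNNGAA, each its own reverse complement, for 2 units, and GAANNTTCNNGAA or its reverse complement TTCNNGAANNTTC, which contain the shorter ones, for 3 units. Hspe1, Hsph1 and Chordc1 were higher after challenge in the DS, and Dnajb6 was lower after repeated cocaine in the Amy and LH. Capitals mark every base that belongs to a 2-unit or 3-unit match.
Hspe1 (chr1:55087898-55088197, plus strand): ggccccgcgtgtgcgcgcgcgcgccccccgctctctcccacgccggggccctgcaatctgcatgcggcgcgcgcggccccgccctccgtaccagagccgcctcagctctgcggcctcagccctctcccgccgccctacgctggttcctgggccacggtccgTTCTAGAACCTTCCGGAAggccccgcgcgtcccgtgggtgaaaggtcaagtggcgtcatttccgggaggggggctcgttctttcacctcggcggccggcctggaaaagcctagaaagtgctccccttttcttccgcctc
Hsph1 (chr5:149636266-149636565, minus strand): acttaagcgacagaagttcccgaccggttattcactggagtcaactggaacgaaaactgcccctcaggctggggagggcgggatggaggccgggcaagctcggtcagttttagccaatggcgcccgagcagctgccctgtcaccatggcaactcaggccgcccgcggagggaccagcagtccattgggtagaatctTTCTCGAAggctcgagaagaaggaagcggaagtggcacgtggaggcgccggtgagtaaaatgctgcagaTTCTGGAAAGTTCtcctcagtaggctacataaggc
Chordc1 (chr9:18292017-18292316, plus strand): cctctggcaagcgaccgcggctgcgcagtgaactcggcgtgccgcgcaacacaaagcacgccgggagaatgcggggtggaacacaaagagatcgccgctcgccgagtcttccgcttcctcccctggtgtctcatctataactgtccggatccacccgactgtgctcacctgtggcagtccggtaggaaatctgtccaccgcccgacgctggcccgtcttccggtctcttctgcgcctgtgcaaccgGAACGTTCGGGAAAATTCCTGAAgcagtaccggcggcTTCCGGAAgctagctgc
Dnajb6 (chr5:29735648-29735947, plus strand): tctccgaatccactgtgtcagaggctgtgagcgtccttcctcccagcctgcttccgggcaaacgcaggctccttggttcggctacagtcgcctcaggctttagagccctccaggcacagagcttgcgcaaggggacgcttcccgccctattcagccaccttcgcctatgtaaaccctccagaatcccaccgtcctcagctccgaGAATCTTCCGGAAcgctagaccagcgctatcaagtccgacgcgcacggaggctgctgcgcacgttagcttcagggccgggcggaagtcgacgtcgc
The 3-unit match began 89 bases before the start in Hspe1, 4 before it in Chordc1, 46 before it in Dnajb6 and 15 bases after it in Hsph1. Hspd1 was the remaining member with such a match, and its window on the opposite strand shares 285 of its bases with that of Hspe1, so the match is the same one. The 3-unit form stood in 5 of 57 members with a promoter, 8.77%, beside 179 of 27025 genes in all, 0.662%. The 2-unit form stood in 25.0% of the members' promoters and in 15.1% of all promoters. A match is a description of letters and not a binding site.

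Across the 8 mice of each experience in the DS run, 26 of the 69 members differed between challenge and acute cocaine, 19 higher and 7 lower, at an adjusted p under 0.05. Among all 12297 genes tested in this comparison 20.0% were called, 10.2% higher and 9.72% lower. The median log2 difference was 0.12 over the members and -0.01 over all genes. The higher members included 5 of 7 CCT subunits, 3 of 5 cochaperones, 2 of 3 Hsp110 proteins and 1 of 8 Hsp70 proteins, while J proteins went both ways. All comparisons here averaged over the 4 times, and levels are CPM on library sizes scaled by TMM (an edgeR scaling factor).

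Hspa8, the constitutive Hsc70, ran from 634 to 808 CPM with a median of 753 in acute mice. It ran from 751 to 1020 CPM with a median of 819 in repeated mice, and from 822 to 1357 CPM with a median of 1106 in challenge mice. No challenge mouse fell in the acute range, and the repeated mice overlapped with both. Hspa8 was higher after challenge by 0.58 (log2, or 1.49-fold, SE 0.059, adjusted p = 5.11e-11) than after acute cocaine, and by 0.37 (SE 0.059, adjusted p = 2.89e-05) than after repeated cocaine. The repeated mice were 0.21 higher than the acute ones (SE 0.059, adjusted p = 0.00969).

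Hsph1 (Hsp105), the Hsp110 exchange factor that also holds unfolded proteins, followed the same order. Its levels spanned 368 to 444 CPM in acute mice (median 392), 397 to 575 in repeated mice (median 461) and 523 to 743 in challenge mice (median 585). Challenge and acute mice did not overlap, and the difference was 0.62 (SE 0.064, adjusted p = 7.80e-11). Hspa4, another Hsp110 protein, was at medians of 189, 169 and 216 CPM in acute, repeated and challenge mice, and rose by 0.20 against acute (SE 0.063, adjusted p = 0.0158) and 0.31 against repeated mice (SE 0.065, adjusted p = 0.00141).

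None of the other Hsp70 members passed in this order. Hspa2, a testis-enriched Hsp70 that is also made in brain, was highest after repeated cocaine: 32.7 to 42.8 CPM in acute mice, 45.6 to 71.4 in repeated mice and 28.9 to 57.8 in challenge mice. The acute and repeated ranges did not meet, with a difference of 0.60 (SE 0.12, adjusted p = 3.09e-04), and challenge mice were 0.47 below repeated ones on the log2 scale (a change of -0.47, adjusted p = 0.0172). The stress-inducible pair Hspa1a and Hspa1b was low in the DS, with acute medians of 3.55 and 4.89 CPM. Hspa1b reached 29.5 CPM in 1 challenge mouse while another stood at 0.617 CPM, and the challenge against acute difference of 0.37 did not pass (adjusted p = 0.582). Hspa1a gave 0.99 (SE 0.40, adjusted p = 0.0713). The promoter windows of the pair are identical at 296 of 300 positions and the genes are near copies, so how their reads were divided is uncertain. Hspa9 (mortalin), the Hsp70 of the mitochondrial matrix, was at medians of 259, 235 and 239 CPM and was not called in any of the 3 comparisons.

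Hsp90aa1, the inducible cytosolic Hsp90, was lower after repeated than after acute cocaine. Acute mice spanned 233 to 295 CPM (median 263), repeated mice 173 to 232 (median 192) and challenge mice 210 to 362 (median 265). The lowest acute mouse stood just above the highest repeated one, and the difference was -0.41 (SE 0.069, adjusted p = 1.27e-05). Challenge exceeded repeated mice by 0.47 (SE 0.071, adjusted p = 1.18e-05) and gave 0.06 against acute mice (adjusted p = 0.630). Hsp90ab1, the constitutive Hsp90, spanned 1805 to 1975 CPM in acute, 1833 to 2038 in repeated and 1773 to 2426 in challenge mice, and passed none of the 3 comparisons.

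Stip1, the Hsp70-to-Hsp90 adaptor, was higher after both repeated and challenge cocaine than after acute cocaine. Its medians were 122, 160 and 184 CPM in acute, repeated and challenge mice, and the challenge range of 121 to 260 CPM covered the acute range of 106 to 134 in part. The difference from acute mice was 0.62 after challenge (SE 0.081, adjusted p = 4.65e-08) and 0.37 after repeated cocaine (SE 0.081, adjusted p = 8.75e-04). Challenge against repeated mice gave 0.25 (adjusted p = 0.0550). Chordc1 (Chp-1), a zinc-binding Hsp90 partner, was at medians of 102, 106 and 134 CPM, and exceeded acute mice by 0.43 (SE 0.089, adjusted p = 2.38e-04) and repeated mice by 0.39 (SE 0.091, adjusted p = 0.00430) after challenge. Hspbp1, which releases nucleotide from Hsp70, was higher than in acute mice after repeated cocaine (0.35, adjusted p = 0.0101) and after challenge (0.32, adjusted p = 0.0171). Ahsa1, the activator of the Hsp90 ATPase, passed none of the 3 comparisons.

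**Figure D1:**
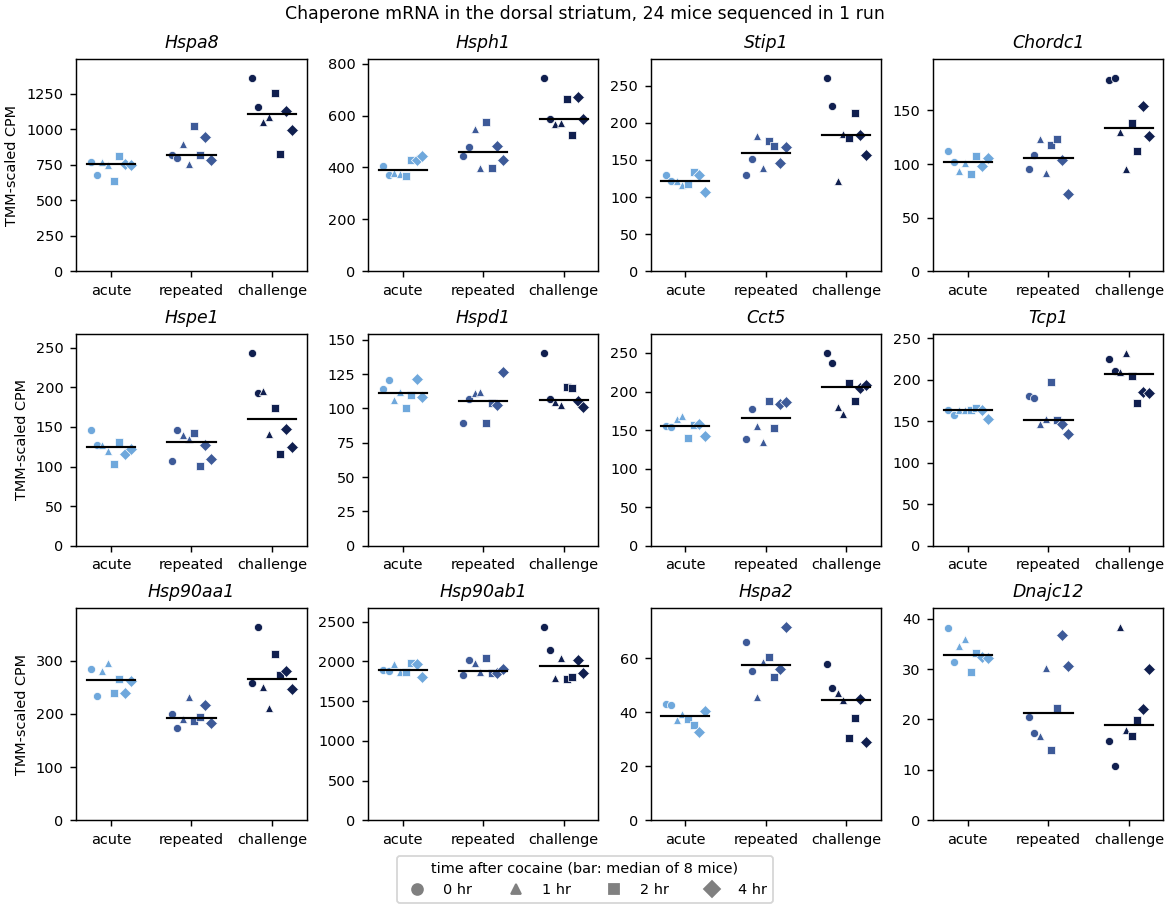
Level of 12 chaperone genes (CPM on TMM-scaled library sizes, each panel with its own axis) in every mouse of the DS run, by experience; each point is 1 mouse, its shape gives the hour after cocaine, and the bar is the median of 8 mice. Challenge mice of Hspa8 and Hsph1 lie above all acute mice, and Hsp90aa1 is lowest in repeated mice.

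Of the 7 CCT subunits, 5 were higher after challenge than after acute cocaine and none was lower, with a median difference of 0.24. Cct5 spanned 140 to 169 CPM in acute and 171 to 250 in challenge mice, without overlap, at a difference of 0.40 (SE 0.070, adjusted p = 1.30e-05). Tcp1 (Cct1) spanned 153 to 166 CPM in acute and 172 to 232 in challenge mice, again without overlap, at 0.32 (SE 0.068, adjusted p = 3.22e-04). Cct3, Cct7 and Cct8 were 0.35, 0.24 and 0.20 higher. Against repeated mice Tcp1, Cct5, Cct7 and Cct4 passed, at 0.33, 0.32, 0.26 and 0.38. Cct4 was not called against acute mice (0.20, adjusted p = 0.120), and Cct3 and Cct8 did not pass against repeated mice. No CCT subunit passed between repeated and acute mice.

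The mitochondrial chaperonin subunits differed in value while sharing a promoter region. Hspe1 was at medians of 125, 131 and 160 CPM in acute, repeated and challenge mice, and challenge mice reached 244 CPM. It exceeded acute mice by 0.40 (SE 0.090, adjusted p = 7.35e-04) and repeated mice by 0.38 (SE 0.092, adjusted p = 0.00724) after challenge. Hspd1 was at medians of 111, 105 and 106 CPM with a difference of -0.00 between challenge and acute mice (adjusted p = 0.983). The difference between these genes was not itself tested.

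The J proteins held members of both directions. Dnaja1, the main cytosolic partner of Hspa8 in the DnajA class, was higher after challenge than after acute (0.20, adjusted p = 0.0133) and repeated cocaine (0.37, SE 0.063, adjusted p = 1.06e-04), at medians of 277, 248 and 314 CPM. Dnaja2, of the same class, was at medians of 211, 184 and 179 CPM and fell against acute mice after both repeated (-0.21) and challenge cocaine (-0.19). In the DnajB class, Dnajb5 and Dnajb11 were higher after challenge than after acute cocaine, by 0.61 (SE 0.11, adjusted p = 3.25e-05) and 0.42, and Dnajb14 and Dnajb9 were lower, by -0.46 (SE 0.092, adjusted p = 1.28e-04) and -0.38. Dnajb14 fell from 88.9 to 115 CPM in acute mice to 57.0 to 90.0 in challenge mice, with a narrow overlap. Dnajb9, Dnajb11 and Dnajb14 are J proteins of the endoplasmic reticulum and moved in both directions. Dnajb1, the classic Hsp40, passed none of the 3 comparisons.

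Of the 25 DnajC members, 4 were higher and 4 lower after challenge than after acute cocaine, with a median of -0.02. Dnajc7, a tetratricopeptide protein that binds Hsp70 and Hsp90, rose by 0.36 (SE 0.070, adjusted p = 8.86e-05), from a median of 153 CPM in acute to 206 in challenge mice. Dnajc5 (cysteine string protein), the vesicle chaperone of the synapse, rose by 0.20 after both repeated (adjusted p = 0.00577) and challenge cocaine (adjusted p = 0.00663). Dnajc6 (auxilin), which recruits Hspa8 to clathrin coats, fell by 0.40 on the log2 scale (SE 0.095, adjusted p = 0.00134), from 123 to 153 CPM in acute mice to 66.3 to 123 in challenge mice. Dnajc12, which serves aromatic amino acid hydroxylases, had medians of 32.8, 21.4 and 18.9 CPM and a difference of -0.69 (SE 0.17, adjusted p = 0.00236), but 1 challenge mouse stood at 38.3 CPM, the top of all 3 groups. Dnajc17, a low gene linked to splicing, rose by 0.93 (SE 0.22, adjusted p = 0.00175) from a median of 11 to 20.2 CPM. The 3 others were Dnajc15 (0.43), higher, and Dnajc16 (-0.47) and Dnajc27 (-0.30), lower. None of the 4 members classed by symbol as small heat shock proteins passed between any of the experiences. The widest, Hspb1, ran from 0.663 to 11.2 CPM within the challenge mice.

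Between repeated and acute mice 14 members were called, 8 higher and 6 lower, 20.3% of the members beside 15.7% of all genes (8.42% higher and 7.25% lower). That share is near the background, and the members' median was 0.01. Besides those named above, Dnajc7 (0.27), Hsph1 (0.23) and the mitochondrial J protein Dnajc30 (0.43) were higher, and Dnajc12 (-0.55), Dnajb14 (-0.39), Dnajb9 (-0.31) and Dnajc27 (-0.28) were lower. Between challenge and repeated mice 13 members were called, 12 of them higher, beside 5.09% of all genes called (2.69% higher and 2.40% lower). The challenge mice stand in both comparisons, as the acute and repeated mice do in theirs, so the 3 sets of differences are not independent. Of the 17 members with a promoter that were higher after challenge than after acute cocaine, 3 held the 3-unit match, as did 0 of 6 lower members and 2 of 34 that were not called.

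**Figure D2:**
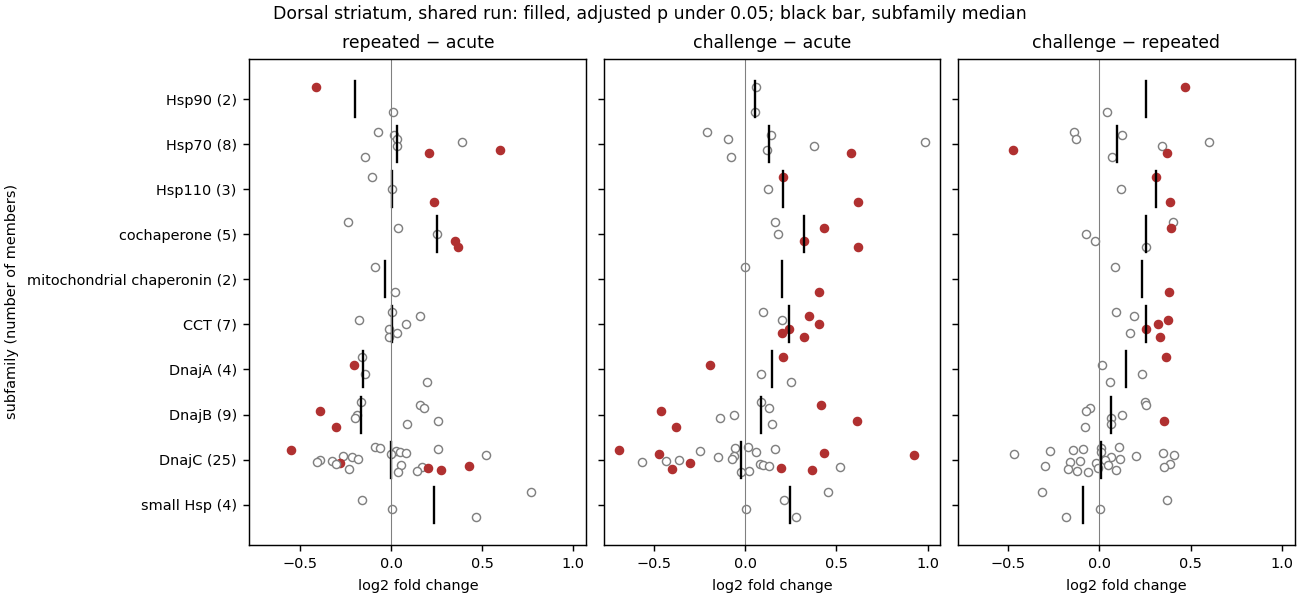
Log2 difference of each of the 69 members in the DS run, by subfamily, for repeated against acute, challenge against acute and challenge against repeated cocaine; filled points passed an adjusted p of 0.05 and black bars are subfamily medians. Filled CCT points lie above 0 in the challenge comparisons, and J proteins lie on both sides.

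Part of these differences was seen in mice that had received no dose on the day. In the 0 hr mice alone, 2 per experience, 8 members were called between abstinent and naive mice, 7 higher and 1 lower, beside 3.53% of all genes (2.07% higher and 1.46% lower). Hspa8 was at 675 and 766 CPM in the naive mice, 797 and 819 in mice after 4 daily doses, and 1160 and 1357 in abstinent mice, 0.80 above naive (SE 0.12, adjusted p = 7.99e-06). Stip1 was at 122 and 130, 130 and 152, and 223 and 260 CPM in the same order (0.94, SE 0.16, adjusted p = 1.08e-04). Chordc1 was at 102 and 112, 95.8 and 109, and 179 and 180 CPM (0.74, adjusted p = 0.00711). In each of these genes both abstinent mice stood above the 4 other mice. Hsph1 (0.78), Cct5 (0.66), Hspe1 (0.68) and Hsp90ab1 (0.28) were the other higher members, and Dnajc12 was lower (-1.37), at 31.3 and 38.2 CPM in naive and 10.9 and 15.8 CPM in abstinent mice.

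Abstinent mice also exceeded the mice sampled 24 hr after the 4th dose in 8 members with none lower, beside 1.21% of all genes (0.642% higher and 0.569% lower). These were Hspa8 (0.64), Hsp90aa1 (0.73), Stip1 (0.78), Chordc1 (0.81), Cct5 (0.62), Hspe1 (0.79), Hsph1 (0.53) and Dnaja3 (0.84), the last a J protein of mitochondria. Between the mice after 4 doses and naive mice no member passed by edgeR, 7 had an unadjusted p under 0.05, DESeq2 called 1, and 1.89% of all genes were called (1.02% higher and 0.862% lower). Each group held 2 mice, and leaving out 1 leaves a lone mouse that is assumed to vary like the other groups of the fit. Without the first abstinent mouse the counts were 4 against naive mice and 1 against mice after 4 doses, and without the acute 0 hr mice numbered 3 and 4 the first count was 5 and 3. Without the repeated 0 hr mouse numbered 3 the second count was 2.

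Marker RNA of other cell types moved with the experience in these libraries. The summed level of 12 oligodendrocyte and myelin markers ran from 12406 to 14182 CPM in acute, 9853 to 12097 in repeated and 7599 to 10923 in challenge mice, and 9 of the 12 were lower after challenge than after acute cocaine. All 5 tested ependymal markers (Ccdc153, Tmem212, Foxj1, Dynlrb2 and Rsph1) were higher after challenge than after acute cocaine (median 1.56). All 5 were also higher after repeated cocaine (median 1.36). The choroid plexus markers Ttr, Kl and Folr1 were not among the genes tested. The summed level of the 8 listed ependymal and choroid plexus markers ran from 19.0 to 60.8 CPM in acute mice. It ran from 50.2 to 110.9 in repeated and 72.0 to 156 in challenge mice. Between repeated and acute mice 5 oligodendrocyte markers were lower and 1 higher. All 4 tested blood markers were higher after challenge than after acute cocaine (median 0.63), and none was called after repeated cocaine. The sums of the 9 listed were 267 to 348 CPM in acute, 222 to 428 in repeated and 337 to 819 CPM in challenge mice. Of 11 markers of striatal spiny projection neurons, again for challenge against acute cocaine, 5 were higher and 3 lower (median 0.10). Of 8 astrocyte markers 1 was higher and 1 lower, and their sum ran from 4441 to 4773 CPM in acute, 4192 to 5043 in repeated and 3714 to 4249 in challenge mice, the last below the acute range. Of 9 microglial markers 2 were higher and 1 lower, and of 7 endothelial markers 1 was higher and 0 lower. After repeated against acute cocaine 3 astrocyte markers were higher and 2 lower, 3 microglial markers higher and 2 lower, 5 neuron markers higher and 3 lower, and the endothelial Ly6c1 higher (0.93). Endothelial sums ran from 152 to 280 CPM in acute, 256 to 357 in repeated and 188 to 271 in challenge mice. None of the oligodendrocyte and ependymal markers was at 0. In tissue RNA, fewer cells of a type and less RNA per cell cannot be told apart, and the part of these shifts in the chaperone differences was not tested.

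The rest of the chaperone machinery was read from a list of 50 genes that the symbol rule leaves out. Of these 50 genes, 17 were higher and 1 was lower after challenge than after acute cocaine, with a median of 0.18. Among them were the immunophilin Fkbp8 (0.45) and the prefoldin subunits Pfdn1 (0.61) and Pfdn2 (0.48), which hand actin and tubulin to the CCT ring, and the lower one was Tsc1 (-0.30), an Hsp90 cochaperone and mTOR regulator. Their summed level ran from 4526 to 4844 CPM in acute, 4812 to 5131 in repeated and 5233 to 5535 in challenge mice, with no overlap between challenge and the others. Of 4 tested genes around the heat shock factors, Hsf1 (0.40) and Hsbp1 (0.16) were higher. Of 15 genes of protein folding and stress in the endoplasmic reticulum, 8 were higher and none lower (median 0.37). Among the 8 were the chaperones Hspa5 (0.60) and Calr (0.49) and the transcription factor Ddit3 (0.70). Of all 12297 genes tested, 2455 were called between challenge and acute mice, in either direction. Some of these genes were also higher after repeated than after acute cocaine: Hsf1 (0.40), Fkbp8 (0.48), Pfdn1 (0.40) and Calr (0.48). Hsbp1 (0.06), Pfdn2 (0.16), Hspa5 (-0.002) and Ddit3 (0.12) were not called in that comparison.

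The challenge against repeated comparison could be repeated in mice outside the shared run, since another run held both experiences. It held 7 challenge and 9 repeated mice that were not in the shared run. These repeated mice were of another cohort than the repeated mice of the shared run. The challenge mice were of the same cohort in both runs. Mice and run changed for both experiences but the cohort only for the repeated mice, and cohort and experience cannot be told apart here either. There 17 members were higher after challenge and 0 lower, beside 14.4% of all genes called. Of the 12 members called higher in the shared run, all 12 differed in the same direction in the other mice and 10 passed again. Hspa8 spanned 1034 to 1291 CPM (median 1191) in these repeated mice and 1310 to 2138 (median 1516) in the challenge mice, a difference of 0.45 (SE 0.066, adjusted p = 1.22e-06). Stip1 spanned 115 to 153 CPM and 161 to 259 CPM, also without overlap (0.47, SE 0.069, adjusted p = 1.79e-06), having missed the threshold in the shared run. Hsph1 was 0.50 higher (SE 0.075), at 427 to 541 against 561 to 1039 CPM.

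The members that did not pass again were Hsp90aa1, Tcp1 and Hspa2. Hsp90aa1 was 0.47 higher in the shared run and gave 0.08 in the other mice (adjusted p = 0.476), and Tcp1 went from 0.33 to 0.17 (adjusted p = 0.0636). Hspa2, the single member lower after challenge in the shared run (-0.47), gave 0.16 in the other mice (adjusted p = 0.291), at medians of 29.0 CPM in repeated and 32.2 in challenge mice, so its direction turned. Hspa1b was 1.40 higher there (SE 0.35, adjusted p = 0.00384), with medians of 2.80 and 7.05 CPM and a highest challenge mouse at 39.3 CPM.

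**Figure D3:**
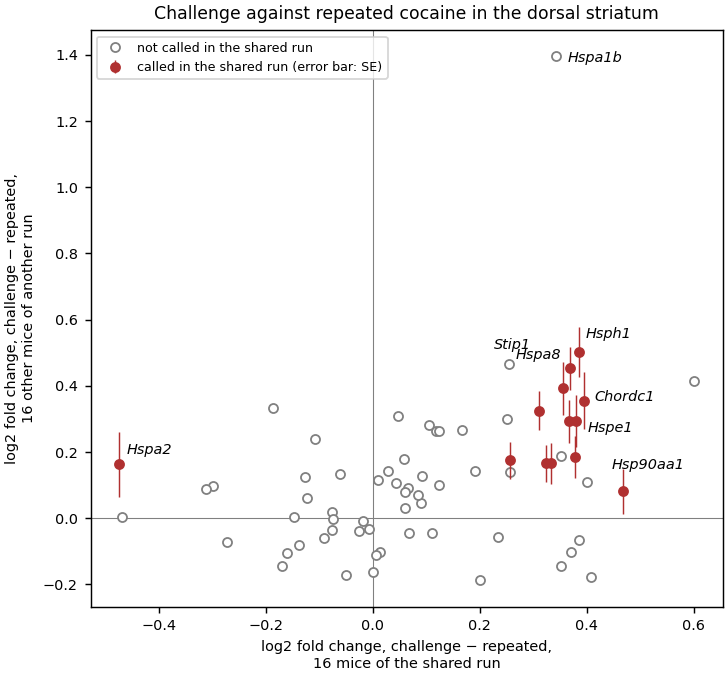
Log2 difference between challenge and repeated cocaine for the 69 members in the DS, with the shared run on the horizontal axis and mice of another run that were not in the shared run on the vertical axis; filled points with SE bars were called in the shared run. Hspa8, Hsph1 and Chordc1 lie high on both axes, and Hspa2 lies below 0 on the horizontal axis alone.

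Few members moved with the hours after cocaine. For these time courses the acute libraries came from another run than the repeated and challenge libraries. The hours within an experience share a run, but levels of acute mice set beside the others also hold the run. In all DS mice, tested for any change from 0 hr within any experience, 3 members passed, beside 2.05% of all genes (5 without the mice numbered 3). Those that rose were DnajB proteins. Dnajb5 stood at a mean of 53.1 CPM in naive mice and at 115, 105 and 63.3 CPM 1, 2 and 4 hr after acute cocaine, log2 changes of 1.12, 1.00 and 0.26 (adjusted p = 4.73e-08 over the 3 times). After repeated cocaine the means were 53.2, 90.7, 89.8 and 60.0 CPM from 0 to 4 hr (adjusted p = 3.38e-04), and after challenge 82.3, 127, 125 and 92.4 CPM (adjusted p = 0.0152). The repeated call was lost without the mice numbered 3 (adjusted p = 0.122), and the challenge call without those numbered 2, 3 or 4 (adjusted p = 0.0853, 0.149 and 0.164).

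Dnajb1 stood at 81.3 CPM in naive mice, reached 139 CPM at 1 hr after acute cocaine and was back at 80.4 CPM by 4 hr (adjusted p = 6.48e-07). After repeated cocaine it ran at 64.2, 73.6, 78.6 and 59.6 CPM and did not pass (adjusted p = 0.341). After challenge its highest mean came at 2 hr: 76.5, 96.4, 115 and 76.8 CPM (adjusted p = 0.00193), a call lost without the mice numbered 3 (adjusted p = 0.149). The time courses did not pass a test of difference between experiences, run on the shared run, for Dnajb1 (adjusted p = 0.988) or Dnajb5 (adjusted p = 0.999), and 0 of all genes passed it. Among the members 9 had an unadjusted p under 0.05 in that test.

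The remaining member was Hspb8, a small heat shock protein that works with Bag3 in autophagy, which fell after acute cocaine in the fit. Its 4 naive mice stood at 20.3, 22.6, 38.6 and 90.0 CPM, and without the mice numbered 1 the change at 1 hr went from -1.15 to -0.41 and the call was lost (adjusted p = 0.815). In the other 4 structures no member passed the same test, beside 0.170% (NAc), 0.216% (LCtx), 0.233% (Amy) and 0.106% (LH) of all genes, so a count of 0 is the background there. At an unadjusted p under 0.05 by edgeR stood 4 members in the NAc, 1 in the LCtx, 2 in the Amy and 5 in the LH. Dnajb5 came closest in the Amy (adjusted p = 0.436) and the LCtx (adjusted p = 0.903).

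**Figure D4:**
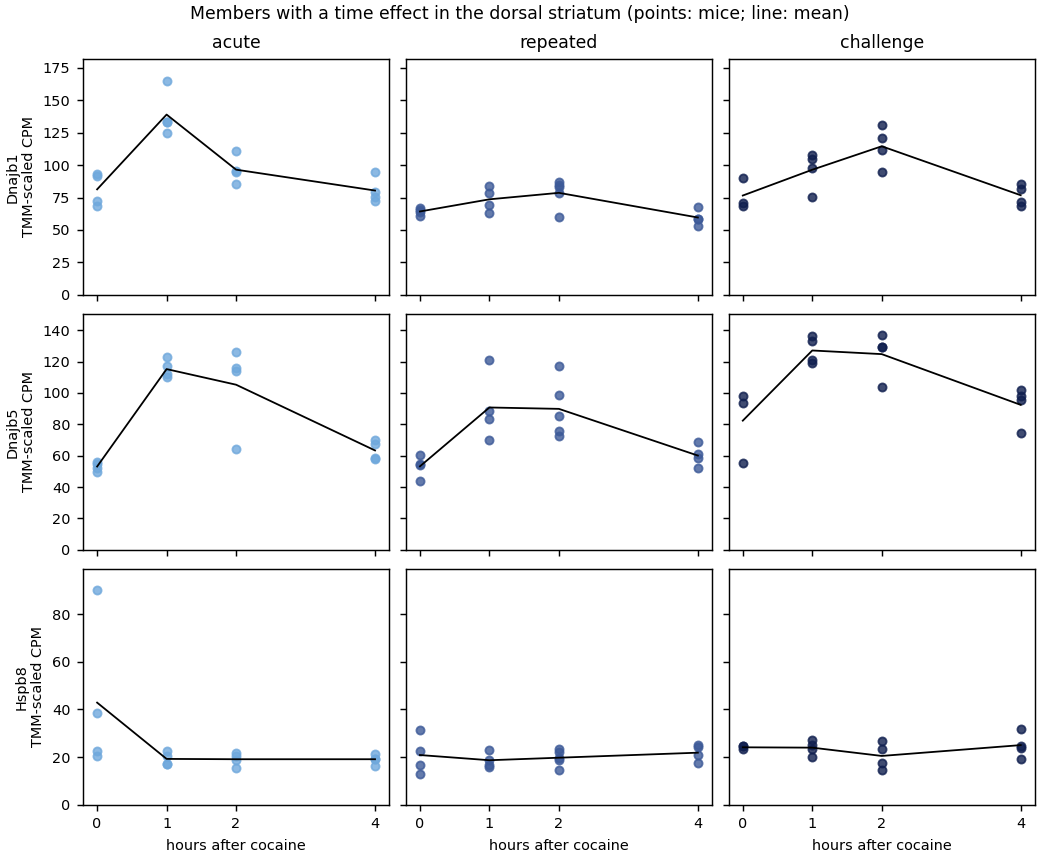
Level (CPM on TMM-scaled library sizes) of Dnajb1, Dnajb5 and Hspb8 in the DS by hour after acute, repeated or challenge cocaine; each point is 1 mouse and the lines join the group means. Dnajb1 and Dnajb5 rise at 1 hr after acute cocaine, and 1 naive mouse stands at 90.0 CPM in Hspb8. Acute libraries came from another run than the repeated and challenge libraries.

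A further run held acute and repeated mice of the Amy and LH together, 8 mice of each experience, each giving both structures. Each experience was a single cohort in this run too, so cohort and experience cannot be told apart. In the Amy 17 members (24.6%) differed between repeated and acute cocaine, 8 higher and 9 lower, beside 18.1% of all genes (10.2% higher and 7.89% lower). In the LH 7 differed, 4 higher and 3 lower, beside 9.75% (4.81% higher and 4.95% lower), a share of members (10.1%) near the background. The LH count was 4 without the 4 hr repeated mouse numbered 2. Dnajb6, a J protein that holds back aggregation, was lower in both: from 51.1 to 59.9 CPM in acute to 37.5 to 50.6 in repeated mice of the Amy, without overlap (-0.36, SE 0.073, adjusted p = 2.37e-04), and from a median of 47.2 to 38.4 CPM in the LH (-0.33, SE 0.075, adjusted p = 0.00254). Ahsa1 was lower in both, at 45.8 to 53.5 against 36.3 to 45.6 CPM in the Amy (-0.26) and with medians of 56.5 and 47.1 CPM in the LH (-0.22). Dnaja2 was the third member lower in both, at -0.23 and -0.19.

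Dnajc7, Cct7 and Hspa8 were higher in both structures after repeated cocaine. Dnajc7 rose by 0.50 in the LH (SE 0.081, adjusted p = 1.98e-05), where acute mice spread from 66.8 to 149 CPM and repeated mice from 141 to 167, and by 0.26 in the Amy. Cct7 rose by 0.21 in the Amy (SE 0.040, adjusted p = 1.31e-04) and 0.15 in the LH, and Hspa8 by 0.10 and 0.12. Called higher in the Amy but not in the LH were Stip1 (0.18), Hsph1 (0.15), Hspa4 (0.21), Hspbp1 (0.25) and Hspb1. Called lower in the Amy but not in the LH were the CCT subunit Cct2 (-0.19), Dnaja1, a partner of Hspa8 (-0.16), Dnajb9 (-0.21), Dnajb4 (-0.21), Dnajc12 (-0.32) and Dnajc16 (-0.23). Hspb1 (Hsp27) had a difference of 0.97 in the Amy (adjusted p = 0.0172) at medians of 2.65 and 6.20 CPM. The effect itself differed between the structures in 0 members by edgeR, 5 had an unadjusted p under 0.05, and 0.855% of all genes passed.

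Between the Amy and the LH as tissues 51 of the members differed in level, 17 higher in the Amy and 34 higher in the LH, beside 63.1% of all genes. Dnajb5 was 1.06 higher and Hspa2 0.72 higher in the Amy, and Dnajc12 (-1.31), Hspb1 (-0.78) and Hspb6 (-0.78) were higher in the LH. As a description over all libraries, with run and structure not separated, mean levels differed little between structures for some members and much for others. Hspa4 ran from 210 to 226 CPM over the 5 structures and Hsp90ab1 from 1860 to 2065 CPM. The inducible Hspa1a was lowest in the DS at 5.58 CPM, followed by the NAc at 10.7 CPM, and stood at 20.0, 21.1 and 23.6 CPM in Amy, LCtx and LH. Dnajb5 went the other way, with 92.2 CPM in the DS and 29.3 in the LH. Dnajc12 stood at 52.8 CPM in the LH and at 18.8 to 27.8 CPM in the other structures, and Stip1 at 317 CPM in the LH and 158 in the DS. The LH held the highest mean of 29 members, the DS of 16, the LCtx of 10, the NAc of 8 and the Amy of 6.

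In the NAc, LCtx, Amy and LH the challenge and acute mice were sequenced in different runs, so the differences there cannot be told apart from the run. The groups held 14 acute and 14 challenge mice (NAc), 8 and 13 (LCtx), 8 and 15 (Amy), and 8 and 7 (LH). With that limit, 44 members were called in the NAc (40 higher, 4 lower, beside 37.9% of all genes), 31 in the LCtx (26 and 5, beside 20.7%), 35 in the Amy (32 and 3, beside 26.0%) and 34 in the LH (30 and 4, beside 25.3%). The members' medians were 0.20, 0.14, 0.16 and 0.17. Without the mice numbered 1, the counts were 29 in the NAc and 19 in the Amy. Oligodendrocyte markers were lower there too, 11 of 12 in the NAc and 9 of 12 in each of the others, and their part in these differences was not tested.

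After challenge, 9 members were higher than after acute cocaine in all 5 structures: Hspa8, Hsph1, Stip1, Hspe1, Dnaja1 and the CCT subunits Tcp1, Cct3, Cct5 and Cct8. Of the 11932 genes tested in all 5 structures, 56 were, 0.469%. The library names give the same cohorts and animal numbers in all structures, 48 mice in all, of which 38 gave 3 or more structures, so the 5 comparisons are not independent. Hspa8 differed by 0.58 in the DS and by 0.56, 0.32, 0.37 and 0.24 in the NAc, LCtx, Amy and LH. In the NAc its 14 acute mice ran from 1030 to 1258 CPM and its 14 challenge mice from 1402 to 2177, without overlap. Hspe1 was 0.36 to 0.51 higher in every structure, and in the LH its 8 acute mice ran from 184 to 222 CPM and its 7 challenge mice from 247 to 355. A further 12 members were higher in 4 structures, 5 in 3, 11 in 2 and 17 in 1, and 15 in none. Lower after challenge were 7 members in 2 structures and 9 in 1, and none in more.

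For some members the differences are given side by side for each structure. Hspa1b, which missed the threshold in the DS, was 1.37 higher in the NAc (adjusted p = 5.26e-06), 0.77 in the LCtx, 1.07 in the Amy and 1.65 in the LH (adjusted p = 1.58e-05). In the LH its 7 challenge mice ran from 9.26 to 71.1 CPM and its 8 acute mice from 6.06 to 11.6. Its near copy Hspa1a gave 0.99 in the DS (adjusted p = 0.0713) and 0.43 in the LCtx (adjusted p = 0.0533), and was 0.71, 0.56 and 1.103 higher in the NAc, Amy and LH. Hsp90aa1 gave 0.06 in the DS and was 0.41, 0.54, 0.36 and 0.40 higher in the NAc, LCtx, Amy and LH. Hspd1 gave -0.00 in the DS and was 0.17 to 0.30 higher elsewhere. Dnajc12 fell in the DS (-0.69) and was higher in the NAc (0.48), LCtx (0.37), Amy (0.27) and LH (0.46), and Dnajc17 rose in the DS (0.93) and was lower in the NAc (-0.45) and Amy (-0.43). Dnajc6, lower in the DS (-0.40) and LCtx (-0.19), was higher in the NAc (0.26), Amy (0.25) and LH (0.19). Dnaja2, lower in the DS (-0.19), was higher in the NAc (0.26) and Amy (0.16), and Dnajc5, higher in the DS (0.20), was lower in the NAc (-0.17) and LH (-0.29). Dnajc13, Hspbp1, Dnajb9 and Dnajc11 were also called in both directions over the structures. Whether the effects differed between structures was not tested.

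Repeated and acute mice of the NAc and LCtx also came from different runs. In the NAc 8 members were called, 6 higher and 2 lower, beside 8.07% of all genes (3.93% higher and 4.14% lower), and 1 was called without the mice numbered 2. In the LCtx 3 were called, beside 3.64% (1.08% higher and 2.57% lower): Hspb8 was 0.74 higher, and Ahsa1 (-0.49) and Dnajb6 (-0.41) were lower. Ahsa1 and Dnajb6 were also lower in the run shared by the Amy and LH. By the library names that run held the same cohorts and the same repeated mice, so these comparisons are not independent.

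**Figure D5:**
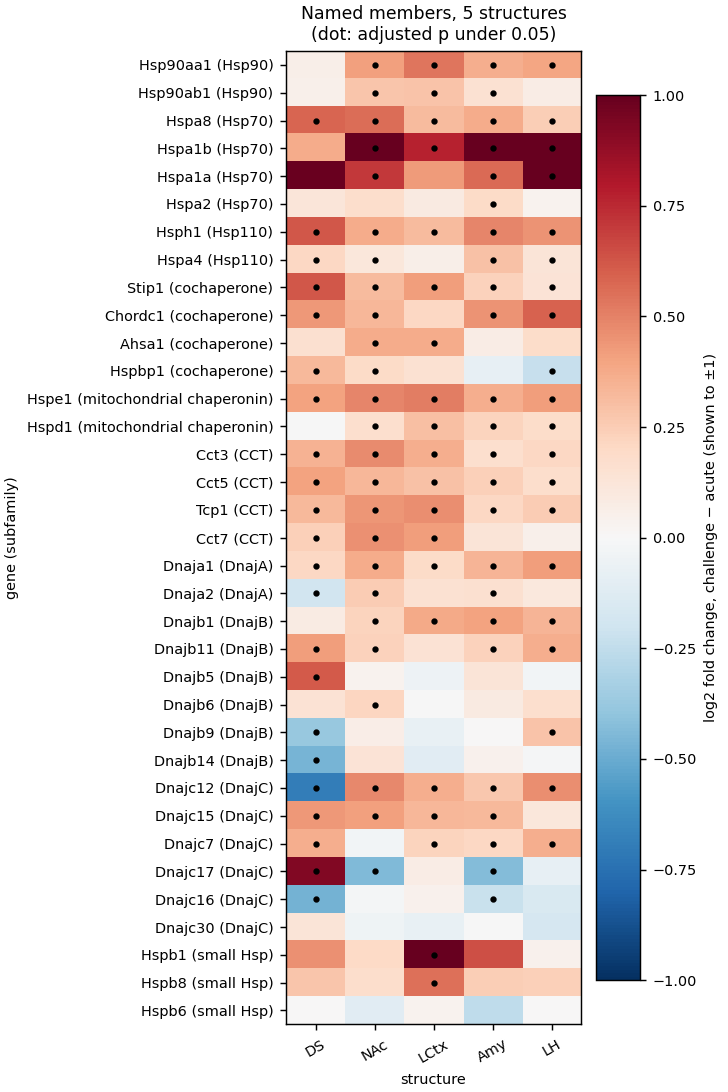
Log2 difference between challenge and acute cocaine (colour, blue lower and red higher, cut at 1 log2 unit) for the 35 named members in the 5 structures, with a dot where the adjusted p was under 0.05. The rows of Hspa8, Hsph1, Stip1 and Hspe1 are red in every column, and Dnajc12 is blue in the DS alone; outside the DS the run moves with the experience.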

How the data were processed

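The authors prepared 3′-RNA-seq libraries from 100 ng of total RNA, removed duplicate reads by their molecular identifiers, mapped to GRCm38 with STAR and counted reads per gene with HTSeq; versions and the annotation are not given in the sources used here. The deposited values are raw counts for 19363 genes in 194 libraries, of which 197 genes held no count. All libraries with a label were kept without down-sampling. Samples were grouped by structure, experience and hour from their titles.

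Counts were tested with edgeR 4.0.16 in R 4.3.3 (TMM scaling, low genes dropped with filterByExpr, quasi-likelihood F tests, Benjamini-Hochberg adjustment over all genes tested, threshold 0.05); experiences were averaged over hours with equal weight. Alternatives were DESeq2 1.42.0, its size factors in edgeR, no filter, an added fold change of 1.2, the replicate number or, between Amy and LH, the mouse as a block, and leaving out libraries or replicate numbers (75 refits). The Amy and LH libraries of the shared run came in pairs from 16 mice by the library names; deviations within a pair correlated at 0.00882 to 0.0633. The files do not state that mice are separate litters, so p-values measure the spread between these mice. On simulated counts for challenge against acute cocaine (DS, 11978 genes), 72 of 100 genes changed 2-fold and 42 of 100 changed 1.3-fold were called, with 3 false calls. Plots used matplotlib 3.10.9.

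Named genes were 13 fixed members, per subfamily the up to 4 called members with the largest difference between challenge and acute cocaine, the up to 5 in each other comparison inside a shared run, those called in a time test, and up to 3 per other list; further members were named after their values were seen. The members and lists were chosen with earlier results of these data known.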

Additional observations from a re-analysis of the deposited data

Results flagged for a closer look

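Of 245 sets of 8 mice checked (a gene in one structure and experience), 14 held a mouse whose gap to the others exceeded Dixon's critical value, near the 1 in 20 that chance gives. In the DS shared run, challenge mouse 1 at 0 hr stood at 29.5 CPM in Hspa1b (others 0.617 to 13.2) and at 140 CPM in Hspd1 (others 100.7 to 115.7), and challenge mouse 1 at 2 hr at 133 CPM in Hspbp1 (others 80.1 to 97.96) and 15.96 CPM in Dnajc30 (others 34.1 to 49.6). Repeated mouse 3 at 0 hr stood at 69.5 CPM in Dnajc16 (others 26.6 to 44.4), repeated mouse 4 at 2 hr at 76.0 CPM in Dnajc15 (others 43.9 to 58.7), and acute mouse 4 at 2 hr at 6.16 CPM in Hspb6 (others 7.33 to 8.38). In the Amy, repeated mouse 1 stood at 114 CPM in Dnajb1 at 1 hr (others 84.8 to 94.4), another repeated mouse at 83.5 CPM in Dnajb5 at 2 hr (others 51.5 to 61.4), and acute mouse 2 at 4 hr at 148 CPM in Hsp90aa1 (others 198 to 217). In the LH, a repeated mouse at 4 hr stood at 71.0 CPM in Dnajb14 (others 54.0 to 60.3), a repeated mouse at 2 hr at 24.9 CPM in Hspa1b (others 4.02 to 11.1), an acute mouse at 2 hr at 58.8 CPM in Dnajc30 (others 47.1 to 52.4), and an acute mouse at 1 hr at 249 CPM in Stip1 (others 288 to 314). Each group is the 8 mice of one structure and experience in 1 run.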

How the results depend on the processing

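With the replicate number as a block, the DS counts of members called were 8 for challenge against acute cocaine (all higher: Hspa8, Hsph1, Stip1, Chordc1, Cct5, Hspe1, Dnajb5 and Dnajc17), 3 for repeated against acute, 1 for challenge against repeated, and at 0 hr 3 for abstinent against naive mice and 3 for abstinent mice against mice after 4 doses; the repeated time course then called 2. The deviations of same-numbered samples had a median correlation of -0.003 in the DS run (from -0.244 to 0.249 over all runs), and 2 of 23 libraries there correlated best with their own number, against 18 of 22 in the LH and 20 of 32 in the Amy and LH run, a hint from the data and not from the design. The block is partly aliased with the experience. With the mouse as a block, an alternative added after seeing the data, 53 members differed between the Amy and LH, including all 51 called without it, and 0 in the effect of repeated cocaine by edgeR (6 at an unadjusted p under 0.05). In the other run with all mice, challenge against repeated cocaine called 29 members, and Hspa2 gave 0.067 there and 0.16 in the mice outside the shared run, against -0.47 in the shared run. Requiring a fold change over 1.2 left 3 calls in the Amy and 2 in the LH for repeated against acute cocaine, 24 between these tissues, and for challenge against acute 25, 17 and 22 in the NAc, Amy and LH, with 5 in the NAc for repeated against acute. Without the filter, the 0 hr comparison of mice after 4 doses with naive mice called 1, the time tests 1, 1 and 3 in the NAc, Amy and LH, and repeated against acute in the LCtx 5; DESeq2 called 1 and 5 in the first and last of these. Leaving out libraries moved the DS counts between 22 and 28 (challenge against acute), 10 and 15 (repeated against acute), 10 and 17 (challenge against repeated), 3 and 9, 0 and 1, and 1 and 9 (at 0 hr, abstinent against naive, 4 doses against naive, and abstinent against 4 doses), and stayed at 0 for the difference in time course. The ranges were 12 to 18 in the Amy and 4 to 9 in the LH for repeated against acute, 0 for their difference and 49 to 54 between the tissues. Leaving out replicate numbers gave 2 to 5 for any change over time in the DS, 2 to 3, 0 to 1 and 1 to 2 within acute, repeated and challenge, and 0 in the NAc, LCtx and Amy. It gave 29 to 43, 21 to 28 and 19 to 34 for challenge against acute in the NAc, LCtx and Amy, and 1 to 8 and 3 for repeated against acute in the NAc and LCtx. For the LH this could not be fitted, as no residual degrees of freedom remained. The cause of these changes was not tested, apart from the smaller number of samples or calls each setting leaves by construction. Among single named genes, DESeq2 kept 486 results on their side of the threshold, moved 5 past it and 14 off it. Low genes such as Hspa1a, Hspa1b, Hspb1 and Dnajc17 rest on few counts, and the part of depth in their results was not tested.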
